A study of Homo sapiens with 6 samples.

Results

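The cell cycle and DNA replication genes are 41 protein-coding genes chosen for their roles in chromosome duplication and cell division, out of 20007 protein-coding genes with a canonical start in the annotation. They comprise 12 S-phase genes (the MCM helicase, other replication factors and enzymes of nucleotide supply), 7 regulators of the G1/S and S/G2 steps, and 22 mitotic genes. H3K27ac, the acetylation of lysine 27 of histone H3, was mapped by CUT&Tag, in which an antibody guides a transposase to the marked nucleosomes, in Kasumi-1 and MV4-11 cells, both lines of human acute myeloid leukemia (AML). Within each line, cells labelled NC, which the labels list as untreated and the study's methods describe as carrying a control hairpin, were compared with cells carrying a short hairpin RNA against the histone chaperone ANP32B (sh-ANP32B). According to the methods, both were stable lines selected with puromycin. Which ANP32B hairpin was used is not given, and a hairpin acts on the RNA, so that the knockdown itself cannot be checked in these lists. Each of the 4 groups had 1 sample and 1 peak list, and the study's methods say that replicates were merged before peak calling. Nothing therefore measured the spread between cultures, no difference below was tested, and the values describe these lists.

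Genes of the cell cycle are transcribed in waves. E2F factors act at the promoters of S-phase genes, which supply the helicase, the sliding clamp, the clamp loader and the nucleotides that replication forks need. Mitotic genes, which build the spindle and its checkpoint and drive entry into and exit from mitosis, are commonly controlled through a CHR (cell cycle genes homology region) element and CCAAT boxes bound by the NF-Y factor. H3K27ac marks the nucleosomes that flank the starts of active genes and active enhancers.

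The lists held between 22136 and 24523 peaks on the main chromosomes and covered 32.7 Mb (NC) and 33.7 Mb (sh-ANP32B) of Kasumi-1, and 27.9 Mb (NC) and 23.0 Mb (sh-ANP32B) of MV4-11. The narrowest peak was 357, 354, 289 and 275 bases wide in the same order, so a short stretch could pass in MV4-11 that was too short for the Kasumi-1 lists. No list gave read counts, and the depth behind a peak is unknown. Of 6 myeloid marker genes, 3 had a promoter peak in both Kasumi-1 lists, and 4 (NC) and 3 (sh-ANP32B) had one in MV4-11, with no peak at MPO in any list. The sh-ANP32B count of MV4-11 includes PTPRC, which had only 8 bases of its window under a peak. The lists labelled Kasumi-1 went against that label in part. Of the Kasumi-1 markers, KIT and POU4F1 had no promoter peak in them, and CD34 had 180 and 132 bases. RUNX1T1 had none at its own start either, which is not counted here against the label. The MV4-11 markers HOXA9, HOXA10, MEIS1 and FLT3 all had a peak in the Kasumi-1 lists. In the MV4-11 lists their summed bases were fewer, 7053 (NC) and 5420 (sh-ANP32B) against 14467 and 14980. FLT3 had 299 and 0 bases there, while MEIS1 in NC had more than in Kasumi-1 NC (3337 against 3103). Results are therefore given for each labelled line on its own, and wherever values of both stand together they compare the lists so labelled. Of the markers of other cell types, PAX5, CD3D, CD3E, EPCAM and COL1A1 had no promoter peak in any list.

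Promoter letters were taken for the members found in the RefSeq promoter table (GRCh38.p14), which gives 250 bases before and 50 bases from the start for 33 of the 41 members. The first 4 below belong to genes that lost their MV4-11 peak, and the other 4 to genes that kept one. Capitals mark the matches searched for on both strands, which were the CHR (TTTGAA), the CCAAT box (CCAAT) and 4 spellings of the E2F site (TTTCCCGC, TTTGGCGC, TTTCGCGC, TTTGCCGC). All are written in the direction of the gene. The S-phase promoters shown are CDC6 (chr17:40287629-40287928, plus strand) and MCM6 (chr2:135876394-135876693, minus strand). E2F1 (chr20:33686336-33686635, minus strand) is a G1/S regulator. The mitotic promoters are CCNB1 (chr5:69166900-69167199), BUB1B (chr15:40160819-40161118), PLK1 (chr16:23678639-23678938), CENPF (chr1:214602945-214603244) and KIF11 (chr10:92592880-92593179), each on the plus strand.
CDC6: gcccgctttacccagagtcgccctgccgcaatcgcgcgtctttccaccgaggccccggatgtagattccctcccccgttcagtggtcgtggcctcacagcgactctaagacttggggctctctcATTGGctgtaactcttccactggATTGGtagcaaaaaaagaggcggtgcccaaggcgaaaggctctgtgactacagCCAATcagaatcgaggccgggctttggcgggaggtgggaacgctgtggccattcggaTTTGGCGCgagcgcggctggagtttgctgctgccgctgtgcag
E2F1: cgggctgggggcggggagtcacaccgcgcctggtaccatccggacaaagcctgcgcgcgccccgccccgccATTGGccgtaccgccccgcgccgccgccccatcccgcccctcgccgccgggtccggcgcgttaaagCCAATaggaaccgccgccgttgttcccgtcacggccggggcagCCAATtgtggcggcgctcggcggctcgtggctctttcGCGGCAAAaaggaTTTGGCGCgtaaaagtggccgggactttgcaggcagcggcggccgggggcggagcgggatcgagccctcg
CCNB1: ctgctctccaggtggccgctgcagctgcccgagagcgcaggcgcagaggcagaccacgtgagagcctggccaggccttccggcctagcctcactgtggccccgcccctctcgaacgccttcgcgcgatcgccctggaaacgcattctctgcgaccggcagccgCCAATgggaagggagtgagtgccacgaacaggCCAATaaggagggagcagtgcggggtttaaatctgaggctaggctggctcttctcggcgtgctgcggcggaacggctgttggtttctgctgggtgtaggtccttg
BUB1B: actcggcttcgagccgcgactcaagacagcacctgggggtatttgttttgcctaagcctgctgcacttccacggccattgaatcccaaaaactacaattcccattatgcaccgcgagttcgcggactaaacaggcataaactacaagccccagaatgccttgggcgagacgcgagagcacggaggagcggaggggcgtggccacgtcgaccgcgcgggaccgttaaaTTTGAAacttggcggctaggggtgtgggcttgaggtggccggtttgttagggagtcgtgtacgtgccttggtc
MCM6: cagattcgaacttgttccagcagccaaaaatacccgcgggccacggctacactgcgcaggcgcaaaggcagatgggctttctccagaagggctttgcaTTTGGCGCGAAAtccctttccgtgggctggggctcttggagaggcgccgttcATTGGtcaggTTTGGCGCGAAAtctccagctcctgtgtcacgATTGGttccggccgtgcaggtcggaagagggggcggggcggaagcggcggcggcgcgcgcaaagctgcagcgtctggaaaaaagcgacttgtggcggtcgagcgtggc
PLK1: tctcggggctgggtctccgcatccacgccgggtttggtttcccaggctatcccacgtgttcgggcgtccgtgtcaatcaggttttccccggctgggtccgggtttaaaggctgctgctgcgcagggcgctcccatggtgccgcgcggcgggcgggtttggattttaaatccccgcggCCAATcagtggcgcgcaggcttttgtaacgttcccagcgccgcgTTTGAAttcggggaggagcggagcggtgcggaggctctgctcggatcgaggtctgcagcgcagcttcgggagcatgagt
CENPF: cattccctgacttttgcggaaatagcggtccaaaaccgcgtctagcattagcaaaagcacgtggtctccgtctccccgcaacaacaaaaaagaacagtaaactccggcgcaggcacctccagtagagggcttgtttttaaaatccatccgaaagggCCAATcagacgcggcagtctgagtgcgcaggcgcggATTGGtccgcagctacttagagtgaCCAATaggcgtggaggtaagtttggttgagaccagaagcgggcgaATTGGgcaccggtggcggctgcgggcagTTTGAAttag
KIF11: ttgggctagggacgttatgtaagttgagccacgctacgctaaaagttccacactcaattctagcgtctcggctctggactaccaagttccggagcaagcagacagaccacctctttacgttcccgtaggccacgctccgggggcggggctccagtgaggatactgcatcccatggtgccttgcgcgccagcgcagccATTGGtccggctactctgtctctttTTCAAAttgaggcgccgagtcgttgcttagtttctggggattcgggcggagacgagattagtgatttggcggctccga

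The letters differed between the phases of the cycle. The CHR was found in 11 of 17 mitotic promoters (64.7%), in 0 of 10 S-phase promoters and in 0 of 6 promoters of the G1/S and S/G2 regulators, against 12.1% of 15345 protein-coding promoters of the same length. An E2F spelling was found in 7 of 10 S-phase promoters (70.0%), 3 of 6 G1/S and S/G2 promoters and 2 of 17 mitotic promoters (11.8%), against 4.49% of all. CCAAT boxes were common to both, with 7 S-phase promoters (70.0%) and 13 mitotic promoters (76.5%) against 36.6% of all. CHR and CCAAT stood together in 9 mitotic promoters (52.9%), as in PLK1, CENPF and KIF11, against 5.08% of all. The MCM6 promoter shows E2F spellings that overlap each other within the run TTTGGCGCGAAA, and CCNB1 shows CCAAT boxes without a match to the CHR letters. A match describes the letters of the window and is not evidence of a bound factor. For 5 of the 33 members (PCNA, CDC25C, CHEK1, AURKB and CDK1) the RefSeq start is not the canonical start used for the peaks. Among the 28 others, the CHR was in 10 mitotic and 0 S-phase promoters and an E2F spelling in 1 mitotic and 6 S-phase promoters.

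A promoter window reached 2500 bases to each side of the canonical start, and the measure of a gene is the number of bases of that window lying under peaks. A gene was called lost where NC had a peak and sh-ANP32B none, gained in the reverse case, and lower or higher where the bases changed at least 1.5-fold, with losses counted as lower. In Kasumi-1, 40 of the 41 members had a promoter peak in both lists. None of the 40 was lost, against 6.79% of all genes with an NC peak, and none was lower, against 14.8%. A count of 0 of 40 allows a share of up to 7.5%, the limit at which 3 such genes would be found (limits for counts of 0 below follow the same rule). None was higher, against 5.21% of genes with a sh-ANP32B peak. CDC25C, the one member without a peak, gained none, against 1.60% of all such genes. In MV4-11, 34 members had a peak in NC and 25 in sh-ANP32B. There, 9 of 34 were lost (26.5%, Wilson 95% interval 14.6 to 43.1, counting error only), near the 24.4% of all genes. The members called lower numbered 17 (50%, 34.1 to 65.9), near the 47.0% of all genes. None of the 7 members without an NC peak gained one, against 2.45% of all such genes, and a count of 0 of 7 allows up to 42.9%. None of the 25 with a sh-ANP32B peak was higher, against 9.50%, which allows up to 12%.

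**Figure D1:**
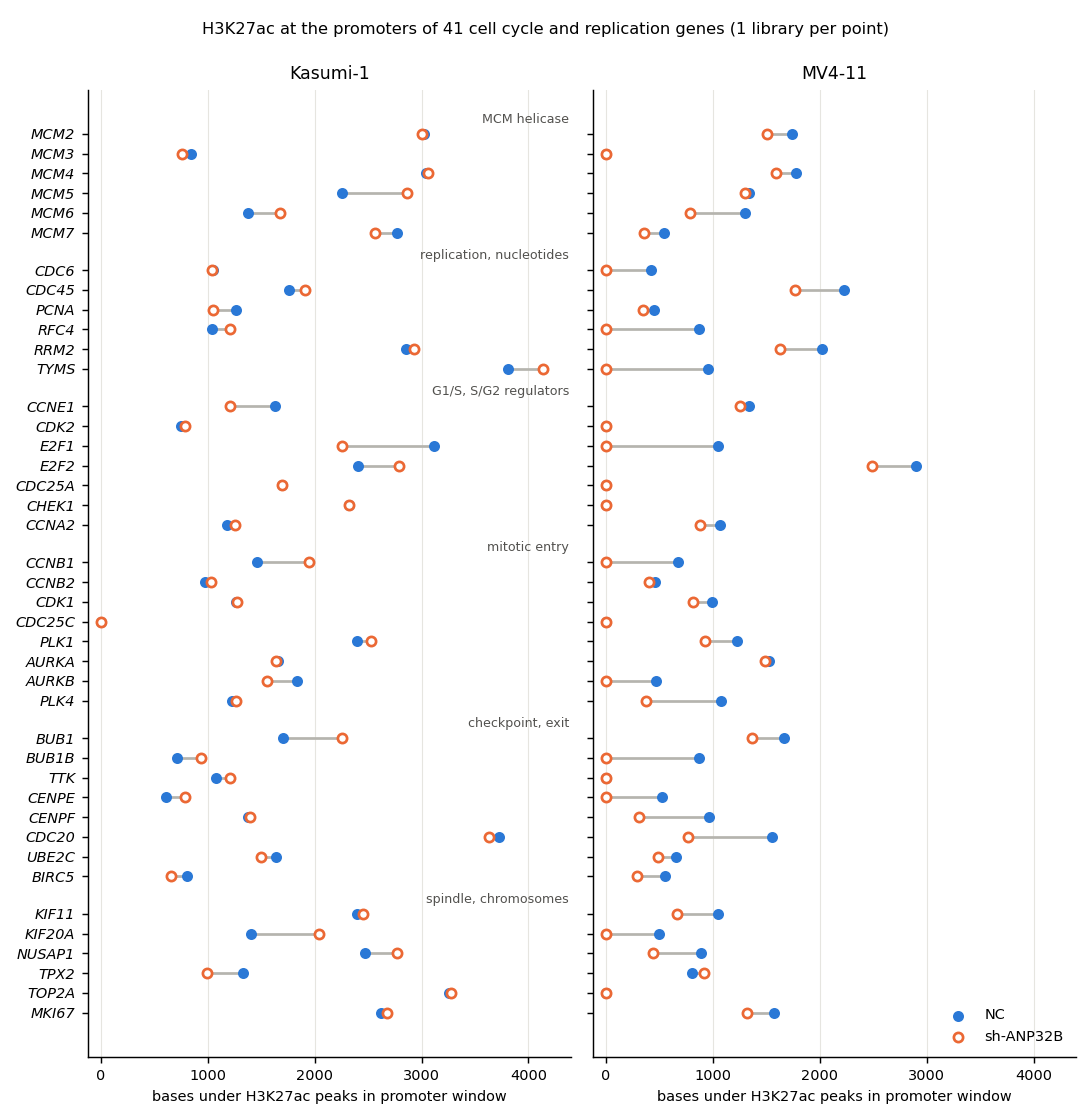
Bases of each member's promoter window (x axis) under H3K27ac peaks in NC (filled blue) and sh-ANP32B (open orange), with Kasumi-1 on the left and MV4-11 on the right and genes grouped by role. The Kasumi-1 points lie close together around changes of both signs, while in MV4-11 the open points lie left of the filled ones for 33 of 34 genes and reach 0 for 9.

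Changes of any size, those called lower or lost included, went mostly one way in MV4-11. The bases were lower by any amount in 33 of 34 members (97.1%, 85.1 to 99.5), against 81.5% of all genes, and only TPX2 was higher. In Kasumi-1 they were lower in 14 of 40 (35.0%, 22.1 to 50.5), against 50.7% of all genes, and higher in 26. Among members with a peak in both lists of a line, the median log2 ratio of sh-ANP32B to NC bases was 0.03 in Kasumi-1 over 40 members and -0.31 in MV4-11 over 25 members. The same medians over all genes were 0.00 and -0.27.

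Size in NC went with loss across all genes. In MV4-11, 60.1% of genes with 1 to 499 NC bases were lost, 35.3% of those with 500 to 999, 9.64% of those with 1000 to 1999 and 0.803% of those with 2000 or more. The members lost in the same classes were 3 of 5, 5 of 12, 1 of 14 and 0 of 3. In Kasumi-1 the shares of all genes were 40.0%, 15.7%, 2.52% and 0.134%, and the members, none of them lost, numbered 0, 6, 19 and 15. The shares of genes called lower there were 41%, 24.0%, 14.5% and 4.2%. The members of Kasumi-1 thus sat mostly in the classes where few genes of any kind lost their peak.

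The 9 lost promoters of MV4-11 each carried a single peak in NC, of 423 to 1043 bases (positions on hg38). For 8 of them the peak ran across the start and reached into the first intron, and the peak of KIF20A lay wholly upstream. Of the 9, 3 belong to S phase, namely CDC6 (chr17:40287869-40288291), RFC4 (chr3:186806071-186806944) and TYMS (chr18:657332-658283). E2F1 (chr20:33685425-33686467), is a G1/S regulator. The 5 mitotic ones are CCNB1 (chr5:69167093-69167767), AURKB (chr17:8210170-8210635), BUB1B (chr15:40161022-40161887), CENPE (chr4:103198007-103198531) and KIF20A (chr5:138178456-138178953). After loss, the nearest sh-ANP32B peak lay 3511 bases from the start of E2F1 and 6557 bases from that of KIF20A, and 121614 bases from that of CENPE. All 9 had a peak in both Kasumi-1 lists.

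The MCM2 to MCM7 proteins form the ring-shaped helicase that unwinds DNA at the fork. Promoter peaks of MCM2 and MCM4 were among the widest of the set in Kasumi-1. MCM2 had 3026 bases in NC and 3002 in sh-ANP32B, and MCM4 had 3043 and 3061. In MV4-11 the same genes went from 1738 to 1504 and from 1779 to 1593. At MCM5, Kasumi-1 had 2259 and 2862 bases and MV4-11 had 1341 and 1297. Of the helicase genes, MCM6 and MCM7 alone were called lower in MV4-11. MCM6 had 1299 bases in NC and 790 in sh-ANP32B there, beside 1380 and 1671 in Kasumi-1. MCM7 had 546 and 351 in MV4-11, beside 2771 and 2562 in Kasumi-1. MCM3, with 839 and 757 bases in Kasumi-1, had no peak in MV4-11. No helicase gene lost its peak in either line.

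The other S-phase genes split between kept and lost in MV4-11. CDC6, which loads the helicase onto origins, had 423 bases in NC and 0 in sh-ANP32B, and in Kasumi-1 1045 and 1041. RFC4, a subunit of the clamp loader, fell from 874 to 0 in MV4-11 and had 1043 and 1205 in Kasumi-1. TYMS, which makes thymidylate, had the widest Kasumi-1 promoter of all members, 3804 and 4137 bases, and went from 952 to 0 in MV4-11. At TYMS, the broad Kasumi-1 peak thus stood beside a lost peak in MV4-11. PCNA, the sliding clamp, had 447 and 344 bases in MV4-11, and 1268 and 1051 in Kasumi-1. RRM2, a subunit of ribonucleotide reductase, had 2018 and 1623 in MV4-11, against 2855 and 2927 in Kasumi-1. At RRM2 in MV4-11 a separate upstream peak of 444 bases was missing, while the peak over the start was 1574 and 1623 bases wide. CDC45, which joins the MCM ring in the active helicase, had 2227 and 1766 in MV4-11, against 1762 and 1912 in Kasumi-1.

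Among the regulators of G1/S and S/G2, E2F1 had the largest fall in both lines. In Kasumi-1 its 3120 bases became 2254, where 1 peak across the start in NC became 2 peaks beside it, and in MV4-11 its 1043 bases became 0. E2F2, its close relative, had 2899 and 2491 bases in MV4-11, with 2408 and 2791 in Kasumi-1. CCNE1, the cyclin of G1/S, had 1628 and 1207 bases in Kasumi-1 and 1338 and 1254 in MV4-11. CCNA2, the cyclin of S and G2, had 1183 and 1251 bases in Kasumi-1, beside 1068 and 878 in MV4-11. CDK2, the partner of both cyclins, CDC25A, a phosphatase that activates it, and CHEK1, a checkpoint kinase, had no MV4-11 promoter peak in NC or sh-ANP32B. In Kasumi-1 they had 754 and 789, 1695 and 1698, and 2324 and 2320 bases.

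The first group of mitotic members holds 8 genes, the kinases, cyclins and phosphatase of mitotic entry together with AURKB and PLK4. CCNB1, the cyclin of mitotic entry, had 675 and 0 bases in MV4-11 and 1456 and 1950 in Kasumi-1. Its kinase partner CDK1 had 989 and 816 bases in MV4-11, against 1264 and 1270 in Kasumi-1. CCNB2, a related cyclin, had 455 and 403, against 975 and 1029. The kinase and its 2 cyclins thus moved by unlike amounts in MV4-11. AURKB, a kinase of the chromosomal passenger complex, had 466 and 0 bases in MV4-11 and 1837 and 1555 in Kasumi-1. AURKA, the related spindle pole kinase, had 1528 and 1486 bases in MV4-11, with 1660 and 1642 in Kasumi-1. PLK4, the kinase of centriole duplication, fell from 1078 to 375 in MV4-11 with 1224 and 1265 in Kasumi-1. The fall at PLK4 (log2 ratio -1.52) was second only to CENPF among the kept members. PLK1, a kinase of mitotic entry and spindle assembly, had 1227 and 923 bases in MV4-11 and 2400 and 2528 in Kasumi-1. CDC25C, the phosphatase that activates CDK1, had no peak in the window of its canonical start in any list. At another annotated start 6551 bases upstream, peaks of 1890 bases (NC) and 1866 bases (sh-ANP32B) were called in Kasumi-1, and of 1700 and 1200 bases in MV4-11.

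The genes of the spindle checkpoint, the kinetochore and mitotic exit included the deepest fall among kept peaks. CENPF, a kinetochore protein, went from 960 to 304 bases in MV4-11 (log2 ratio -1.66), beside 1376 and 1391 in Kasumi-1. CDC20, which activates the anaphase-promoting complex, went from 1556 to 767, beside 3723 and 3634 in Kasumi-1. Both had nearly equal values in the Kasumi-1 lists. BIRC5 (survivin), a passenger complex subunit, went from 556 to 290 in MV4-11 and had 801 and 656 in Kasumi-1. BUB1B, a checkpoint kinase-like protein, had 866 and 0 bases in MV4-11 and 711 and 936 in Kasumi-1. CENPE, the kinesin of the kinetochore, had 525 and 0 in MV4-11 and 610 and 787 in Kasumi-1. The partner of BUB1B in name and checkpoint, BUB1, had 1668 and 1362 bases in MV4-11, of which 173 in sh-ANP32B came from a separate downstream peak, against 1699 and 2257 in Kasumi-1. UBE2C, the conjugating enzyme of the anaphase-promoting complex, had 659 and 485 in MV4-11, against 1637 and 1499 in Kasumi-1. TTK, another checkpoint kinase, had 1080 and 1207 in Kasumi-1 and none in MV4-11.

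Spindle motors and chromosome proteins made up the last 6 members. KIF20A, a kinesin of the central spindle, had 498 and 0 bases in MV4-11 and 1405 and 2045 in Kasumi-1, the largest relative difference upward in that line (45.6%). KIF11, the kinesin that separates spindle poles, went from 1044 to 665 in MV4-11 and had 2397 and 2448 in Kasumi-1. NUSAP1, a microtubule-binding protein, went from 892 to 437 in MV4-11 and had 2475 and 2772 in Kasumi-1. In NUSAP1, a separate downstream peak of 533 bases in NC was missing in sh-ANP32B. TPX2, which activates AURKA on the spindle, had 800 and 918 bases in MV4-11 and 1328 and 990 in Kasumi-1, the reverse of most members in each line. MKI67, the proliferation marker that coats mitotic chromosomes, had 1569 and 1320 in MV4-11 and 2616 and 2678 in Kasumi-1. TOP2A, which untangles DNA, had 3252 and 3275 bases in Kasumi-1, running up to the upstream edge of the window, and none in MV4-11.

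Set beside each other, S-phase and mitotic genes lost peaks at shares of 27.3% and 26.3% in MV4-11. Of 11 S-phase genes with an NC peak, 3 were lost (interval 9.75 to 56.6) and 5 were lower (45.5%, 21.3 to 72.0). Of 19 mitotic genes, 5 were lost (interval 11.8 to 48.8) and 11 were lower (57.9%, 36.3 to 76.9). The narrower S-phase set of MCM2 to MCM7, CDC6, PCNA and RRM2 had 8 genes with an NC peak, of which 1 was lost and 3 were lower. The 4 G1/S and S/G2 regulators with an NC peak held 1 lost and no other lower gene. The intervals overlap widely, and the difference between the sets was not tested. Bases in NC also differed, with a median of 1299 over the 11 S-phase genes and 892 over the 19 mitotic genes with a peak. Their part in the shares was not tested.

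**Figure D2:**
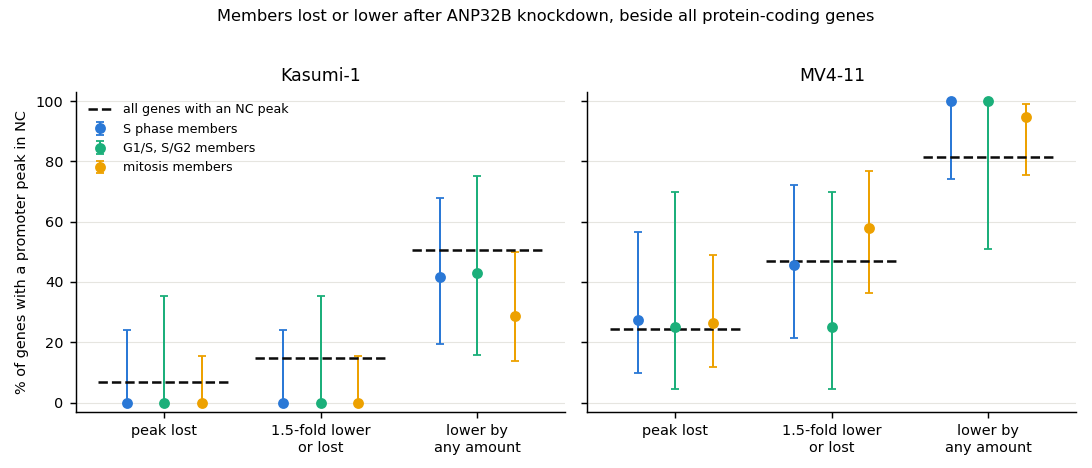
Percent of the members with an NC promoter peak that lost it, were at least 1.5-fold lower (losses included) or were lower by any amount in sh-ANP32B, for S-phase, G1/S and S/G2, and mitotic members in each line. Bars are Wilson 95% intervals over genes (counting error only) and dashed lines the share of all genes; the members' MV4-11 shares of lost and lower genes lie around the dashed lines at 24.4% and 47.0%.

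The kept peaks were also ranked by width within their own list, as a percentile. The widest promoter peak of the 14 mitotic genes with an MV4-11 peak in both lists had a median rank of 61.0 in NC and 36.4 in sh-ANP32B, and that of the 8 such S-phase genes 76.3 and 78.3. The rank was lower in sh-ANP32B for 12 of the 14 mitotic and 6 of the 8 S-phase genes, with median changes of -9.50 and -2.81 percentile points, against -3.65 over all genes with a peak in both lists. The lists differ in length, and ranks among the same number of widest peaks in each gave 10 of 14 and 5 of 8, with median changes of -5.77 and -0.787. No value over all genes was computed for lists of equal number, so the -3.65 is no reference for these. CENPF went from 58.4 to 4.53 in its own lists, CDC20 from 78.8 to 18.3, and PLK4 from 63.8 to 15.0. At CDC20, 1 NC peak of 1556 bases became 2 peaks of 398 and 369 bases, and the rank is that of the wider. The 5 members that went the other way were TPX2 (49.1 to 60.6), RRM2 (79.2 to 83.5), AURKA (78.1 to 80.5), MCM5 (73.3 to 75.6) and CCNE1 (73.3 to 74.4). These ranks cover only genes that kept a peak, and the difference between the sets was not tested.

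Fewer starts than windows stayed under a peak in MV4-11. There the start base lay under a peak in 29 members in NC and in 13 in sh-ANP32B. Of the 9 lost members, 8 had had it covered, and the share of lost members was near that of all genes (26.5% against 24.4%). The fall from 29 to 13 has no count over all genes beside it. Among the 21 members with the start covered in NC and a peak kept in sh-ANP32B, 8 no longer had the start covered, against 23.7% of all such genes. The 8 were CDC45, CCNA2, CCNB2, PLK1, PLK4, CENPF, UBE2C and MKI67. By set they were 6 of 13 mitotic, 1 of 6 S-phase and 1 of 2 G1/S and S/G2 genes. In Kasumi-1 the start was uncovered in 3 of 40 members (CDC6, CCNE1 and E2F1), against 13.5% of all such genes.

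**Figure D3:**
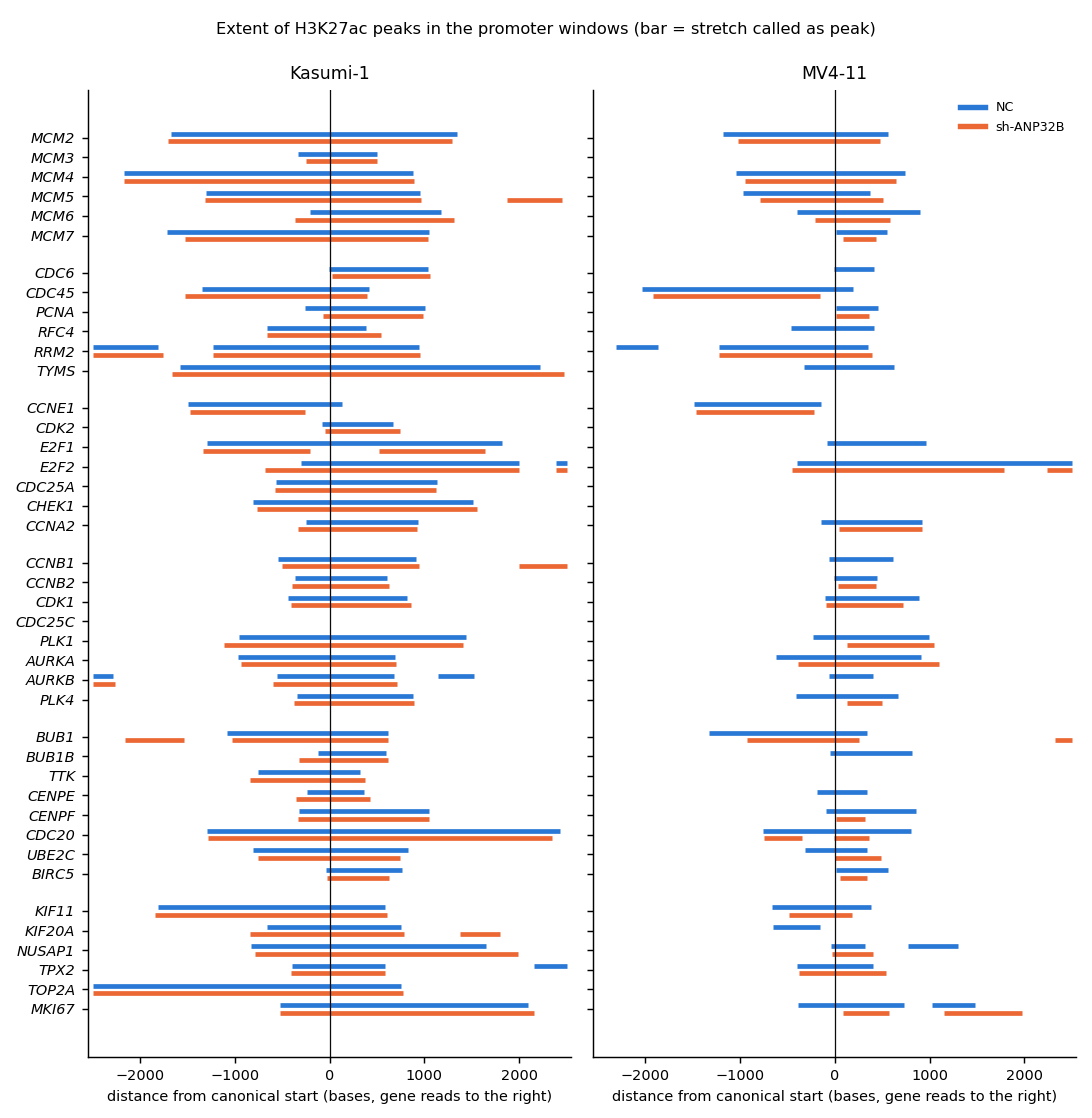
Stretches called as H3K27ac peaks in NC (blue, upper bar) and sh-ANP32B (orange, lower bar) along the promoter window of each member, with the x axis in bases from the canonical start (vertical line) and the gene reading to the right. In MV4-11 the orange bars of PLK1, PLK4, CENPF and MKI67 begin to the right of the start that the blue bars cross, and 9 genes have a blue bar only.

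In several kept peaks the whole upstream part went missing. Of 22 members with a kept MV4-11 peak and NC bases upstream of the start, 7 had 0 upstream bases in sh-ANP32B (31.8%), against 12.6% of all such genes. They were CCNA2, CCNB2, PLK1, PLK4, CENPF, UBE2C and MKI67, of which 6 are mitotic. PLK1 went from 230 to 0 bases upstream and from 996 to 923 downstream. PLK4 went from 405 to 0 upstream and from 672 to 375 downstream. MKI67 went from 390 to 0 upstream and from 1178 to 1320 downstream. Its peak at the start was 1120 bases wide in NC and 490 in sh-ANP32B, and a separate peak in intron 2 was 449 and 830 bases wide. Of 24 members with NC bases downstream, CDC45 alone had 0 downstream bases in sh-ANP32B (4.17%), against 6.49% of all such genes, its 191 bases having gone. Several of these edges lay close to the start. CCNB2 had only 13 upstream bases in NC.

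**Figure D4:**
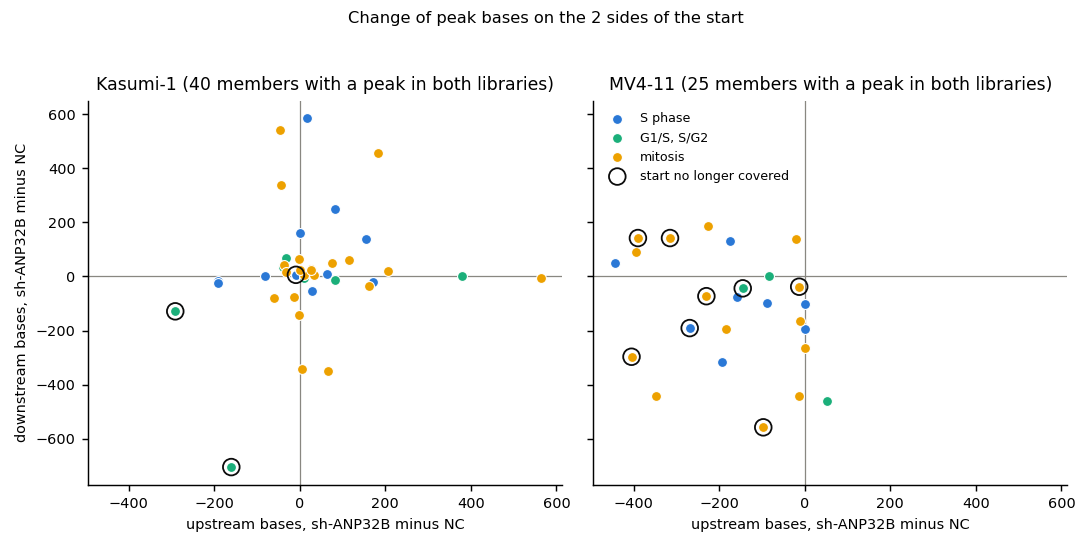
Change in bases under peaks (sh-ANP32B minus NC) upstream of the start (x axis) and downstream of it (y axis) for members with a peak in both lists, 40 in Kasumi-1 and 25 in MV4-11, coloured by set, with rings on genes whose start base was no longer covered. In MV4-11, 21 of the 25 points lie left of 0, and the 8 ringed genes include 6 mitotic ones.

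The same change can be read on the printed promoters. The 300 bases of PLK1 had 280 bases under the MV4-11 NC peak and 0 under the sh-ANP32B peak, so its CHR and CCAAT matches lay inside the peak in NC and outside it after knockdown. CENPF had 147 and 38 bases, with 5 and 2 of its 5 matches inside. KIF11 had all 300 bases under the peak in both lists, and MCM6 had 300 and 257, with all of its matches inside in both. CDC6, E2F1, CCNB1 and BUB1B had 60, 132, 107 and 97 bases in NC and 0 in sh-ANP32B. Over the 28 promoters whose RefSeq start is the canonical start, 45 of 81 matches lay under an MV4-11 NC peak and 19 under a sh-ANP32B peak. In Kasumi-1 the numbers were 78 and 72. Of 25 such promoters with any base under an MV4-11 NC peak, 12 had none in sh-ANP32B (48.0%), against 32.2% of 3741 promoters of all genes. In Kasumi-1, CCNE1 alone of 28 had none (3.57%), against 13.4%. All 33 members with letters were also split by MV4-11 outcome. The CHR was in 1 of 9 lost and 9 of 19 kept promoters, CCAAT in 5 and 15, and an E2F spelling in 3 and 7. Among these, the letters of AURKB (lost), CDK1 and PCNA (kept) lie at another start than the one used for the peaks. The 5 promoters without an MV4-11 NC peak held 1 with the CHR, 4 with CCAAT and 2 with an E2F spelling. These counts are small, and the difference was not tested.

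Several of the larger Kasumi-1 changes came mostly from a second peak and less from the one at the start. MCM5, CCNB1, BUB1 and KIF20A each had a sh-ANP32B peak that touched no NC peak, adding 578, 505, 619 and 417 bases to the window. AURKB and TPX2 each had such a peak in NC alone, of 381 and 344 bases. At TPX2 the peak over the start was 984 bases wide in NC and 990 in sh-ANP32B. The widest peak was 1456 and 1445 bases at CCNB1, and at KIF20A the peak over the start was 1405 and 1628 bases. CCNE1 (-25.9%) and E2F1 (-27.8%) had a start no longer covered, and the single peaks across the start of BIRC5 (-18.1%) and PCNA (-17.1%) were narrower.

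Before any knockdown, the lines already differed. The Kasumi-1 NC list had promoter peaks at 40 of 41 members (97.6%) and the MV4-11 NC list at 34 (82.9%), against 47.7% and 35.8% of all genes. Of the 34 members with a peak in both, 31 had more bases in Kasumi-1 (91.2%), against 81.1% of all genes. CDC45, E2F2 and BUB1B had more in MV4-11. No member had a peak in MV4-11 NC alone, beside 278 of all 7154 genes with an MV4-11 NC peak. The 6 with a peak in Kasumi-1 NC alone were MCM3, CDK2, CDC25A, CHEK1, TTK and TOP2A, which is 15.0% of the 40, against 27.9% of all genes with a Kasumi-1 NC peak. For these, the nearest MV4-11 NC peak lay from 10675 bases away at MCM3 to 926186 bases away at TTK, on chromosome 6. The median over members with a peak was 1648.5 bases for Kasumi-1 and 1016 for MV4-11. Cell line, depth and peak calling cannot be told apart here.

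Some member promoters are shared with a gene that reads the other way. A start on the opposite strand, heading away, lay within 1000 bases for 12 of 41 members (29.3%), against 18.9% of all genes. Examples are MCM7 with AP4M1 at 246 bases, NUSAP1 with OIP5 at 290 bases, AURKA with CSTF1 at 430 bases and KIF20A with BRD8 at 482 bases. A peak there may belong to either gene and cannot be assigned to the member. Some MV4-11 peaks covered the start of the neighbour and not that of the member. They include the lost NC peak of KIF20A, over the start of BRD8, and the kept sh-ANP32B peak of CDC45, over the start of UFD1. In MV4-11, 3 of 11 such members with an NC peak were lost and 6 were lower. Of the 23 others, 6 were lost and 11 were lower.

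Peaks outside promoters were read as well, taken as peaks within 50000 bases of the start that touched no promoter window of any gene. In MV4-11, 23 members had such bases in NC and 14 of the 23 had fewer in sh-ANP32B (60.9%), against 71.1% of all genes. In Kasumi-1, 5 of 18 had fewer (27.8%), against 40.8%. CDC6 had the most, with 16335 bases in NC against 15164 after knockdown in MV4-11, and 18976 against 21145 in Kasumi-1. CDC6 thus had no promoter peak in MV4-11 sh-ANP32B, while that list held 15164 bases of such peaks nearby. MCM5 went from 7904 to 9588 in MV4-11 and BIRC5 from 1713 to 280.

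A companion list of 123 other genes of replication, G1/S control, the MuvB complex (which binds the CHR) and mitosis was read in the same way. In Kasumi-1, 111 had an NC peak, 2 were lost (ORC5 and E2F5), 2 were gained (RFC5 and SPC25), 7 were lower and 5 higher. As shares of the genes that could be called, these were 1.8% lost, 16.7% gained, 6.31% lower and 4.5% higher, against 6.79%, 1.60%, 14.8% and 5.21% of all genes. In MV4-11, 91 had an NC peak, 30 were lost (33.0%, 24.2 to 43.1) and 55 were lower (60.4%, 50.2 to 69.9), beside the 24.4% and 47.0% of all genes. By any amount, 83 were lower (91.2%), against 81.5% of all genes. In MV4-11, 4 of 32 were gained (E2F4, LIN54, KIF4A and KNL1, 12.5% against 2.45%). The split by phase was not that of the members. Companions of replication and nucleotide supply that kept an MV4-11 peak had a median rank change of -13.7 (13 of 18 lower), and mitotic companions one of -0.196 (13 of 26 lower). The value over all genes was -3.65. The start was no longer covered in 8 of 14 replication and 6 of 18 mitotic companions with the start covered in NC and a peak kept. The largest MV4-11 falls were at CDC7 (1631 to 0 bases) and DBF4 (2713 to 1114), the kinase that fires origins and its activator, and at the CDK inhibitor gene CDKN2C (2194 to 797). The largest rises there were at the passenger complex subunit CDCA8 (950 to 1390), the kinetochore scaffold KNL1 (0 to 437) and the condensin subunit NCAPD3 (756 to 1119). In Kasumi-1 the largest falls were at the microtubule-depolymerising kinesin KIF2C (3364 to 2016), the replicative polymerase subunit POLE (2219 to 963) and E2F5 (903 to 0). The largest rises were at the fork protection gene TIPIN (817 to 1625), the anaphase-promoting complex subunit CDC23 (493 to 1296) and the primase-polymerase subunit POLA2 (956 to 1717). No companion gene was lost in both lines or gained in both lines, and no member was either.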

How the data were processed

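H3K27ac CUT&Tag was measured in 4 samples, 1 per group, and 2 IgG samples were not analysed here. Per the study's methods, the authors aligned reads to hg38 with Bowtie2, removed PCR duplicates with Picard, merged replicates with samtools and called peaks with MACS2 at a q-value of 0.01. The submitters' processing notes instead name Bowtie2 2.4.4 and MACS3 3.0. Whether IgG served as the calling control is not stated. The deposited lists give the position and length in bases of each peak, counted from 1, with no height, q-value or read count, so no interval for depth could be given. The groups come from the sample titles.

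Bases of each promoter window under peaks were computed with Python 3.11.15 and pandas 2.3.3, for canonical starts of GENCODE v44, with at least 1 overlapping base as a peak. The code was tested on simulated lists and returned 0 values that differed from the known answers. Intervals are Wilson 95% (scipy 1.17.1). All members are named, and companions by the largest 3 falls and 3 rises in each line and by loss or gain in both; the rest of those lost or gained were named after their values were seen. The members and lists were chosen with earlier results of these data known. Promoter letters of 33 members equalled hg38. The alternatives tried were other windows, widths, joining gaps, starts, overlaps and folds. A marker gene of other cell types is not reported here.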

Additional observations from a re-analysis of the deposited data

Results flagged for a closer look

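The bases under promoter peaks changed in opposite directions in the lines for 23 members. For 22 of these they were higher in sh-ANP32B than in NC in Kasumi-1 and lower in MV4-11, and for TPX2 the reverse. A further 11 members were lower in both lines. The 22 are 64.7% of the 34 members that changed in both lines, against 41.9% of 7053 such genes in all. Of those 7053 genes, 2608 were lower in both lines, and 679 were lower in Kasumi-1 and higher in MV4-11. A window of 1000 bases left 14 of the 23 with the same opposite directions, and gave 50% of members against 38.3% of all genes. It turned or emptied the Kasumi-1 change at CDC45 (-22), TYMS (0), CCNB1 (-11), BUB1 (-5), NUSAP1 (-43), MKI67 (-1) and TPX2 (6) and turned the MV4-11 change at RRM2 (49) and E2F2 (52). A window of 5000 bases left 22 of the 23, with BUB1 higher in both lines. Each group had 1 list, so the contrast of the 2 lines was not tested, and some of the changes are a few bases, such as the rise of 6 at CDK1 in Kasumi-1.

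The Kasumi-1 change minus the MV4-11 change, in bases, was as follows for the S-phase genes: 204 at MCM4, 647 at MCM5, 800 at MCM6, 611 at CDC45, 1036 at RFC4, 467 at RRM2 and 1285 at TYMS. For the G1/S and S/G2 regulators it was 791 at E2F2 and 258 at CCNA2. For the group with the mitotic entry genes it was 1169 at CCNB1, 106 at CCNB2, 179 at CDK1, 432 at PLK1 and 744 at PLK4. For those of the checkpoint and kinetochore it was 864 at BUB1, 1091 at BUB1B, 702 at CENPE and 671 at CENPF. For those of the spindle and chromosomes it was 430 at KIF11, 1138 at KIF20A, 752 at NUSAP1, -456 at TPX2 and 311 at MKI67. The largest, at TYMS, rests on a lost MV4-11 peak.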

How the results depend on the processing

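No paired analysis was possible because each group had 1 peak list. Under the alternatives, 132 values of the counts stayed within 1.5 times the reported count, and the other 12 follow. No call of a member turned direction. Counting only peaks of at least 1000 bases left 17 members with an MV4-11 NC peak, of which 8 were lower, all of them lost, including 5 mitotic genes and 1 S-phase gene. It also gave 1 gained and 1 higher member in Kasumi-1. A window of 1000 bases gave 2 lower Kasumi-1 members (E2F1 and CCNE1), and one of 5000 bases gave 1 higher member (BUB1). A common minimum width and joining gap raised the lost S-phase genes in MV4-11 from 3 to 5 and all lost members from 9 to 13. Members lower by any amount in MV4-11 ranged from 31 to 33 of 34 where 34 had an NC peak. The E2F spellings were in 1 mitotic promoter in place of 2, both upstream of the start alone and over promoters with the canonical start. The motif counts over promoters with the canonical start alone, and the ranks in lists of equal number, were added after the data were seen. Read depth, unknown here, limits what the absence of a peak can show.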
